A study of Mus musculus with 5 samples.

Results

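*Mn1* encodes a transcriptional coactivator, and CpG methylation was described here over the gene and 20 kb on each side in mouse acute myeloid leukemia (AML) driven by mutant *Cebpa*. It is 1 of 21755 protein-coding genes examined on the autosomes and the X chromosome, and the stretch holds 1466 of 21353092 CpG dyads, a dyad being a CpG with the calls of both strands added. *Mn1* was chosen by its weighted promoter methylation, which was lower in the *Tet2*-/- libraries of these same data, so that its methylation levels are given as a description with no test. Whole-genome bisulfite sequencing (WGBS) relies on conversion of cytosine to uracil unless it is methylated or hydroxymethylated, the form that TET2 makes from methylated cytosine. A base still read as C is called methylated, so the levels do not separate these forms. Both groups were donor-derived AML blasts from bone marrow (strain C57BL/6 in the labels) of *Cebpa*-/p30 genotype, with one *Cebpa* allele deleted and the other encoding p30, a truncated form of CEBPA, a transcription factor of myeloid cells. The controls were *Tet2*+/+ (2 libraries, 23 and 24) and the others *Tet2*-/- (3 libraries, 5, 7 and 8). By the methods of the study, deletion was induced with *Mx1-Cre*, which is not confined to blood cells, in irradiated recipients of donor marrow. The sort kept donor-derived cells without surface markers of T, B and erythroid cells. The labels give no age for the mice.

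TET2 oxidises methylated cytosine, which leads to its loss, and its gene is often mutated in myeloid leukemia. Promoters rich in CpG usually lack methylation, whereas gene bodies and the ground between genes carry it. In humans MN1 is joined to ETV6 by a translocation in myeloid leukemia, and its high expression marks AML of poor outcome. In mice forced expression of MN1 in marrow cells causes AML, and MN1 acts as a coactivator of the retinoic acid receptor.

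Total calls lay between 63111735 and 110752967 per library, or 2.96 to 5.19 per dyad, and the level over all dyads was 67.3% (library 23), 62.3% (24), 70.9% (5), 74.8% (7) and 68.4% (8). The first 1 kb of the last *Tet2* exon (chromosome 3, 133467191 to 133468190, 17 dyads) had 44 and 64 calls in the *Tet2*+/+ libraries and 0 in each *Tet2*-/- library, which allows up to 3.73%, 3.83% and 6.65% of the flanking depth. This window was chosen after a first one, 500 bp on each side of the start of that exon, had been seen. The first had 34 and 50 calls against 8, 6 and 3, and so did not show a complete loss. Its exon side lies within the second window, so its *Tet2*-/- calls lay before the exon start. Methylation holds no RNA, so the labelled cell type was checked only through promoters of marker genes, given further on.

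The *Mn1* gene lies on the plus strand of chromosome 5 (GRCm38, 111417362 to 111457033). Its coding transcript has 2 exons, and exon 1 (111417442 to 111421883) holds 3718 of 3891 coding bases, or 95.6%. The only other annotated gene in the stretch is *Gm43119*, a model of unknown coding status inside the intron, from 6227 to 8348 bases after the transcription start site (TSS). Distances below are from the 5′ end of the gene in GENCODE. RefSeq places the start at 111417300, 62 bases earlier.

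The *Mn1* start is unusually rich in CpG. In the 300 bases around the RefSeq start there were 41 CpGs, against a median of 7 in 32851 RefSeq promoters of GRCm38, and 96.5% of those had fewer. A few stretches of the reference sequence are shown with each CG in capitals, since these are the sites that the calls count: the bases just before the start, which stayed low in 4 libraries, the start of the coding sequence, over which the level climbs, and 300 bases inside the window of largest gain. All are on the plus strand.
Before the RefSeq start, chr5:111417050-111417299: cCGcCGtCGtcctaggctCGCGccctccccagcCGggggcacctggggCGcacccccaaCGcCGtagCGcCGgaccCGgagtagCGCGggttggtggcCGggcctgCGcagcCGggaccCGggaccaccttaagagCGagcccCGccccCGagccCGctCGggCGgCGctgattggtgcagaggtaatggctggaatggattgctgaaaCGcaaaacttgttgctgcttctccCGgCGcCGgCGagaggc
First coding bases, chr5:111418166-111418465: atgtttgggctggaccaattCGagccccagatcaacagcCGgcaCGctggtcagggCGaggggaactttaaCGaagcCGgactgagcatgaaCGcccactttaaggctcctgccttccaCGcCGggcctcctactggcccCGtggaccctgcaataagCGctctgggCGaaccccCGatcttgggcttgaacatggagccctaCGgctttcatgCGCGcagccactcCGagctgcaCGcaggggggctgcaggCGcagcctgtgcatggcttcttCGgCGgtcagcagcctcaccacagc
Inside the window of largest gain, chr5:111400974-111401273: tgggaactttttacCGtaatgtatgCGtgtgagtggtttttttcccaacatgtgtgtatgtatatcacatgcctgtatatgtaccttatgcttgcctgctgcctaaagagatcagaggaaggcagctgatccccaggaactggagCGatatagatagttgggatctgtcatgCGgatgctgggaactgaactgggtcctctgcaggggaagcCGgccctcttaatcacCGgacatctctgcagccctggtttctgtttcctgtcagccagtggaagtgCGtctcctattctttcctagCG
The first holds 30 dyads, the second 21 and the third 8. Over the first, *Tet2*+/+ libraries 23 and 24 had levels of 1.64% and 27.9%, and *Tet2*-/- libraries 5, 7 and 8 had 4.71%, 2.61% and 0%, from 42 to 115 calls each. The 0 rests on 42 calls. Over the coding bases the levels were 49.5% and 53.3% against 51.1%, 22.6% and 29.2%. Over the third they were 40.9% and 14.9% against 81.2%, 93.9% and 65.2%. The groups overlapped over the first and the second sequence and not over the third.

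Letters of known motifs were searched on both strands of the 300 bases around the RefSeq start. The CEBP letters TTGCNNAA occurred 1 time and are held by 10.8% of all promoters of that length. The SP letters GGGCGG occurred 3 times (35.7% of promoters) and CCAAT 1 time (37.4%). GATAA (25.4%) and CCGGAA (14.9%) did not occur.

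Methylation of the *Mn1* promoter, 1000 bp on each side of the TSS with 220 dyads, was lower in each *Tet2*-/- library than in both *Tet2*+/+ libraries. It was 14.9% in *Tet2*+/+ library 23 (95% Wilson interval 12.4% to 17.8%, 685 calls) and 36.8% in library 24 (32.7% to 41.0%, 517 calls). In *Tet2*-/- libraries 5, 7 and 8 it was 7.30% (5.92% to 8.97%, 1123 calls), 2.62% (1.82% to 3.76%, 1069 calls) and 3.54% (2.35% to 5.30%, 622 calls). Intervals cover counting error only, and neighbouring CpGs share reads. The *Tet2*+/+ mean was 25.8% ± 15.5 (SD, n = 2). The *Tet2*-/- mean was 4.49% ± 2.48 (SD, n = 3) and the difference -21.3 points. The *Tet2*+/+ libraries differed from each other more than library 23 did from the *Tet2*-/- libraries, and the difference was -10.4 points without library 24 and -32.3 points without library 23. Library 24, with the lowest level over all dyads, had the highest level here.

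The sides of the TSS differed. In the 1 kb before it (95 dyads) library 23 was at 1.88% and library 24 at 24.1%, against 3.16%, 1.24% and 0.48% in *Tet2*-/- libraries 5, 7 and 8, so that only library 24 stood apart and the groups overlapped. In the first 1 kb after it (125 dyads) the levels were 20.8% and 48.2% against 9.69%, 3.45% and 5.07%, and the groups did not overlap. The 5′UTR, with 101 dyads, showed the largest difference among the annotated parts, with 19.8% and 53.0% against 7.23%, 2.61% and 2.88%, or -32.2 points.

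In windows of 250 bp the difference was deepest between 500 and 750 bp after the TSS, at 33.1% and 60.0% against 10.9%, 3.40% and 4.48%, or -40.3 points. From 250 to 500 bp it was -33.1 points. From 750 to 1000 bp the libraries met, with 27.9% and 29.5% against 28.0%, 7.76% and 17.7%. From 1000 to 1250 bp all 5 were high, between 60.6% and 86.3%. The coding sequence starts 804 bp after the TSS, so that this step in level lies within it.

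**Figure D1:**
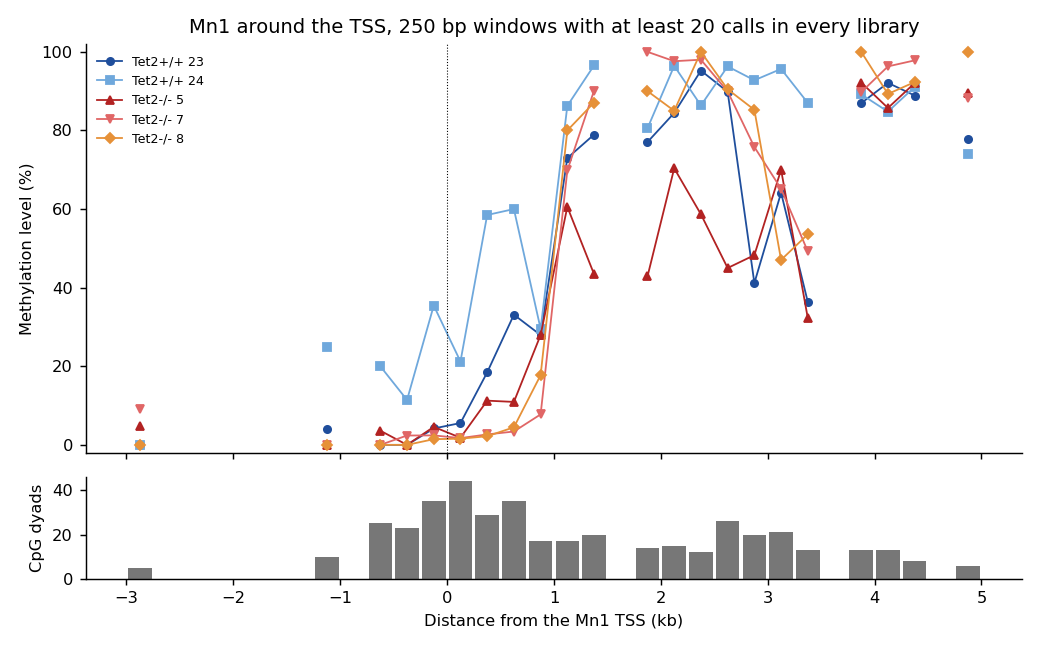
Methylation level (%) in 250 bp windows against distance from the *Mn1* TSS (kb), 1 line per library, with CpG dyads per window below; windows under 20 calls in any library are blank. Library 24 lies above the others in the windows shown from 1250 bp before the TSS up to it, and all 5 libraries are between 60.6% and 86.3% from 1000 to 1250 bp.

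The run of 500 bp windows under 10% that touches the TSS was 2000 bp long in *Tet2*+/+ library 23 and 0 bp in library 24. It was 2000, 3000 and 3000 bp in *Tet2*-/- libraries 5, 7 and 8. Libraries 23 and 5 had the same length, so the groups overlapped. At a limit of 20% the lengths were 2500 and 0 bp against 3000 bp in each *Tet2*-/- library.

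Most covered promoter dyads were neither fully methylated nor free of methylation in library 24. Among dyads with at least 4 calls, 76.1% were mixed in library 24 (51 of 67) and 43.6% in library 23 (34 of 78). The shares in *Tet2*-/- libraries 5, 7 and 8 were 29.2%, 13.4% and 20.3%. Fully methylated dyads were few everywhere, at 3, 3, 1, 0 and 0. Depth differs between the libraries, and its part in these shares was not tested.

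The strands gave different levels in library 23. On its plus strand the promoter was at 20.2% (396 calls) and on its minus strand at 7.61% (289 calls), and on dyads called on both strands at 6.97% and 10.0%. Minus strand levels were 7.61% and 38.7% against 6.88%, 3.38% and 2.41%, so that library 23 and library 5 lay close together there. Library 24 was high on both strands, at 34.9% and 38.7%. In the *Tet2*-/- libraries the strands differed by at most 2.42 points over all dyads and by at most 4.55 points on dyads called on both strands.

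The coding part of exon 1 (232 dyads) was high in all libraries and its groups overlapped, with 74.5% and 86.9% against 57.2%, 78.4% and 77.8%. Library 5 was the lowest and held between 42.9% and 70.4% in the 250 bp windows from 1250 to 2750 bp. In the same windows the other 4 libraries held 77.0% or more. The mean difference of -9.55 points was -2.58 points without library 5, -3.36 points without *Tet2*+/+ library 24 and -15.7 points without library 23.

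Past exon 1 the direction turned. The intron (490 dyads) was at 71.4% and 62.5% against 78.0%, 87.1% and 80.5%, a difference of 14.9 points. Exon 2 (50 dyads), which holds the end of the coding sequence and the 3′UTR, was at 70.1% and 55.7% against 85.0%, 93.4% and 83.7%, or 24.5 points. The gene body from 1 kb after the TSS differed by 9.97 points, a value that also takes in most of the coding part of exon 1. There library 23 at 72.9% and library 5 at 73.7% lay close together. The flanks (455 dyads) were at 61.6% and 50.5% against 73.6%, 84.4% and 73.9%, or 21.3 points. In these parts every *Tet2*-/- library was above both *Tet2*+/+ libraries, and library 24 was the lowest.

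**Figure D2:**
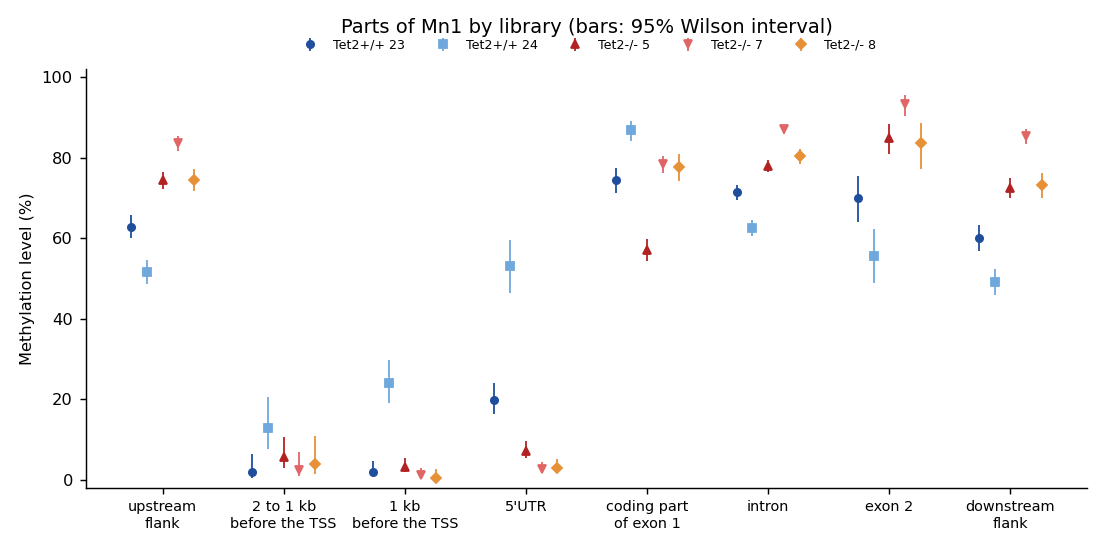
Methylation level (%) of each part of *Mn1* and its flanks, 1 point per library with its 95% Wilson interval. The 5′UTR is lower in all *Tet2*-/- libraries, and the intron, exon 2 and both flanks are higher.

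Of 159 windows of 500 bp in the stretch, 93 had at least 20 calls in every library. In 4 of them every *Tet2*-/- library was lower than both *Tet2*+/+ libraries, and in 42 every one was higher. Over the genome, 2.43% of such windows were lower and 32.3% higher. The 4 lower windows started 3500 and 1500 bp before the TSS, at the TSS and 500 bp after it. Of 10 windows with at least 25 dyads, 2 were lower and 0 higher, against 6.27% lower and 20.9% higher among such CpG-dense windows of the genome. From 2 kb before to 5 kb after the TSS, 3 of 14 windows were lower and 2 higher, and outside that 1 of 79 was lower and 40 higher. The rule that chose *Mn1* used this contrast, so nothing is read from these counts.

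The largest loss was 500 to 1000 bp after the TSS, at 31.6% and 50% against 16.7%, 4.97% and 8.67% (-30.7 points). The window at the TSS followed, at 10.9% and 44.2% against 5.28%, 2.03% and 1.83% (-24.5 points). More of each window is 5′UTR than anything else. The next were at 3000 bp after (-18.5 points), 3500 bp before (-16.0 points) and 500 bp before the TSS (-13.0 points). In the first and the last of these 3 the groups overlapped.

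The largest gain was 16500 to 16000 bp before the TSS, at 33.9% and 11.3% against 80.2%, 83.0% and 60.0% (51.8 points). The next windows in order started 54500 bp (44.9 points), 37500 bp (44.5 points), 9500 bp (44.2 points) and 49000 bp (44.1 points) after the TSS. Of these, the window at 37500 bp lies in exon 2, with *Tet2*+/+ libraries close together at 44.4% and 42.0%. At 49000 bp they were far apart, at 57.1% and 17.2%. All 5 hold 5 to 15 dyads, against 73 at the TSS.

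**Figure D3:**
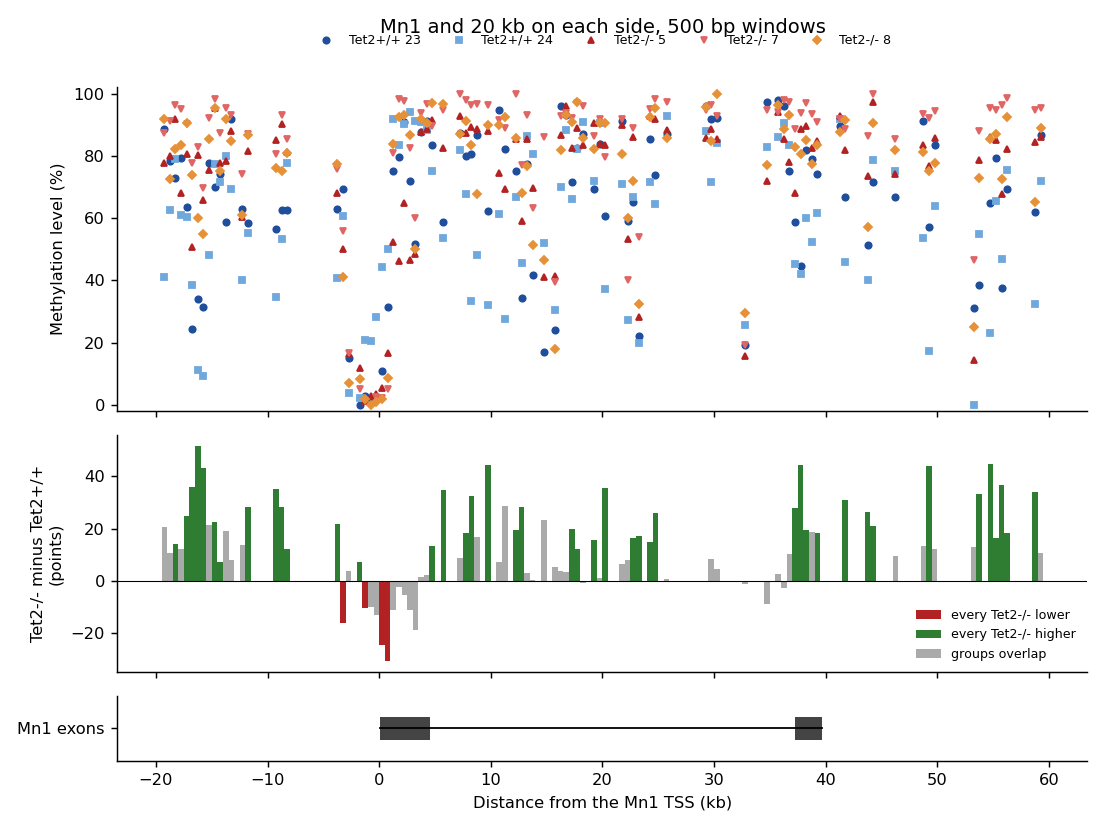
Methylation level (%) per library, and the difference of group means (points), in 500 bp windows with at least 20 calls in every library, against distance from the *Mn1* TSS (kb), with the 2 exons below. Of 93 windows, 4 are lower in every *Tet2*-/- library (red) and 42 higher (green).

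Coverage of the promoter moved with the groups against the autosomes but not against promoters with a like number of dyads. Relative to the autosomes it was 0.828 and 0.662 in the *Tet2*+/+ libraries and 0.988, 0.923 and 0.943 in the *Tet2*-/- libraries (difference 0.206, two-sided exact permutation p = 0.1, the smallest that 2 against 3 libraries allow). Library 24 had the lowest coverage and the highest methylation. Relative to 182 promoters with a like number of dyads the difference was 0.00857 (exact permutation p = 1). Over 500 kb on each side, relative coverage was 1.14 and 1.17 against 1.16, 1.19 and 1.15 (difference 0.00957, exact permutation p = 0.7). The part of coverage in the methylation difference was not tested.

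Among 5310 CpG-dense promoters, with at least 100 dyads and at least 100 calls in every library, *Mn1* ranked 7 by loss and 85 by number of dyads. Of these promoters 6.25% were lower in every *Tet2*-/- library and 1349 were higher in every one, and the median difference was 0.58 points. A loss of over 10 points was seen in 29 and a gain of over 10 points in 330. Promoters at least 10 points above all other libraries numbered 10 in *Tet2*+/+ library 23, 16 in library 24, 79 in *Tet2*-/- library 5, 11 in library 7 and 142 in library 8. *Mn1* is one of the 16 of library 24.

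The 5 largest losses were at *Map10* (-26.9 points), *Zfp711* (-25.5 points), *Tmem164* (-23.8 points), *Hand2* (-22.7 points), which encodes a transcription factor of heart development, and *Dock1* (-22.4 points). Their *Tet2*+/+ means were between 38.9% and 71.4%, above that of *Mn1*. The *Tmem164* groups overlapped, with 39.5% and 38.2% against 1.47%, 39.9% and 3.76%, and its gene lies on the X chromosome, as does *Zfp711*.

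The promoters most like *Mn1*, by Euclidean distance over the 5 library levels, were *Mvb12b*, *Adamts3*, *Atp8b1*, *Zfp653*, *Dennd4b*, *Recql4*, *Gm49318* and *Smarce1*. None was close, since the distances were 20.3 to 23.7 points. *Mvb12b* was at 19.7% and 22.2% against 10.3%, 5.22% and 16.1%. *Zfp653* and *Gm49318* overlap each other. *Adamts3* had library 24 alone at 18.6% and the other 4 between 5.17% and 6.18%.

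**Figure D4:**
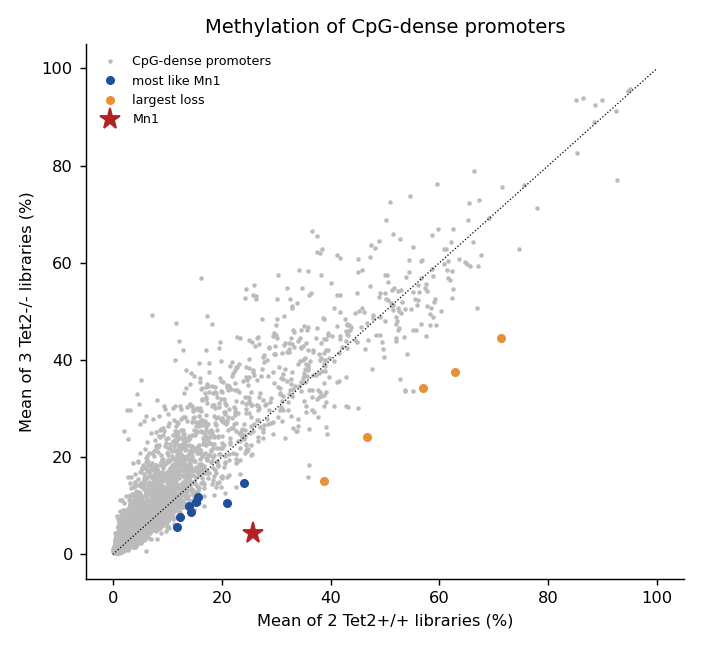
Mean methylation (%) of 5310 CpG-dense promoters in the 3 *Tet2*-/- libraries against the 2 *Tet2*+/+ libraries, with *Mn1* (star), the 8 most like it (blue) and the 5 largest losses (orange). *Mn1* lies at 25.8% and 4.49%, and the dotted line marks equal levels.

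Promoters of 28 genes tied to MN1 (partners, fusion partners and leukemia genes) were then examined in a fit over all promoters. Of 27 tested, 2 passed, both higher in *Tet2*-/-, and 0 were lower, where 1.07% of 19455 promoters passed in either direction (edgeR's quasi-likelihood test, Benjamini-Hochberg adjusted p under 0.05). At an unadjusted p under 0.05 there were 7 of the list and 3521 of all, and limma also called 2. The median difference of the list was 1.18 points, against 2.22 over all promoters. *Bend2* had no entry. In tests on simulated data this fit recovered 0 of 200 promoters raised by 25 points and 103 of 200 raised by 45 points. A promoter not called may therefore still differ. The simulation assumed the same spread between libraries for every promoter and raised none of the highly methylated ones. The shares recovered need not hold for the real data, in which *Meis2* passed with a smaller difference.

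*Rara*, the retinoic acid receptor alpha, rose from 57.8% and 38.6% to 85.1%, 80.1% and 83.7% (34.8 points, edgeR adjusted p = 0.0348). *Meis2*, a homeobox factor related to the MN1 cofactor *Meis1*, rose from 3.15% and 2.39% to 13.3%, 10.9% and 15.4% (10.4 points, edgeR adjusted p = 0.0425). Both calls were lost without library 24 (edgeR adjusted p = 0.49 and 0.485), without library 23 (0.0732 and 0.127) and after subtraction of library medians in limma (0.186 and 0.0638). Without *Tet2*-/- library 5 both were lost as well (0.0615 and 0.0598), and so were they without library 8 (0.0785 and 0.0938), and *Meis2* without library 7 (0.0622). With 500 bp on each side of the TSS *Meis2* was lost (6.89 points, edgeR adjusted p = 0.199) and *Rara* was not (0.018). Without library 23 or 24 the *Tet2*+/+ group is 1 library, assumed to vary as the *Tet2*-/- libraries do. The differences were then 44.4 or 25.1 points for *Rara* and 10.8 or 10.03 points for *Meis2*.

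Other promoters of the list with large differences did not pass. *Vdr*, the vitamin D receptor, differed by 22.4 points (edgeR adjusted p = 0.159) and *Hoxa9*, a homeobox gene of immature blood cells, by 13.2 points (0.192). *Mecom* differed by 11.8 points (edgeR adjusted p = 0.247), *Hoxa10* by 9.35 (0.314) and *Flt3*, a cytokine receptor of progenitors, by 8.47 (0.161). The *Hoxa9* levels were 17.3% and 8.37% against 19.6%, 28.8% and 29.7%. *Flt3* was at 9.83% and 10.5% against 18.3%, 17.6% and 20.1%. *Meis1* itself was between 1.33% and 3.86% in all libraries, and *Etv6* between 0.27% and 1.24%.

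**Figure D5:**
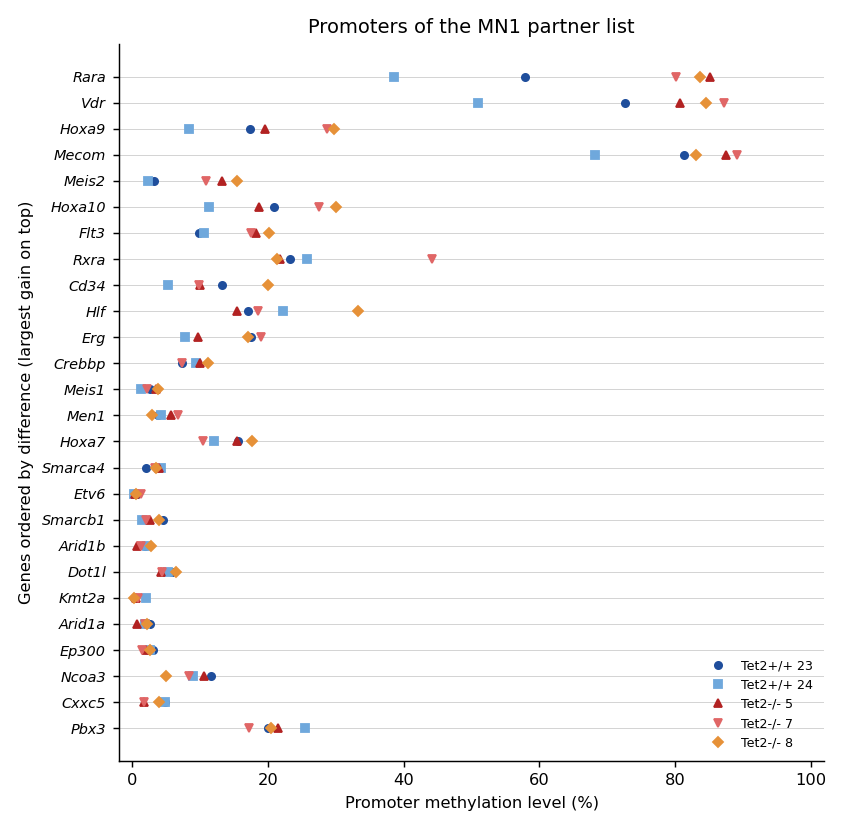
Promoter methylation level (%) of 26 genes of the MN1 partner list, 1 point per library, ordered by the difference of group means. *Rara* and *Meis2* passed the edgeR test.

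The promoters of lineage markers were read against the same background, with 1.07% of 19455 promoters called and 3521 at an unadjusted p under 0.05. Of 6 myeloid markers 1 passed, *Cebpe*, a factor of granulocyte maturation, which rose from 2.92% and 2.43% to 9.58%, 21.5% and 27.0% (edgeR adjusted p = 0.041). Its groups do not overlap. The *Cebpe* call was lost without library 24 (edgeR adjusted p = 0.485), 23 (0.132), 7 (0.0949) or 8 (0.0927), and in limma after subtraction of library medians (0.0606). Without library 23 or 24, again with 1 *Tet2*+/+ library, the *Cebpe* difference was 16.9 or 16.4 points against 16.7 with all. The call was also lost with 500 bp on each side of the TSS (edgeR adjusted p = 0.0684). Of 6 lymphoid markers 0 passed, 2 had an unadjusted p under 0.05 in edgeR, and the levels of *Cd3d* were 88.7% and 76.3% against 88.8%, 89.6% and 84.1%. Of 4 erythroid markers tested 1 passed, *Hba-a1*, at 44.4% and 38.5% against 88.6%, 86.1% and 85.0% (edgeR adjusted p = 0.0415), from 20 to 36 calls and with a near-identical copy that may share reads. The *Hba-a1* call was lost without *Tet2*-/- library 5, 7 or 8 (edgeR adjusted p from 0.0785 to 0.0863). It was also lost in limma after subtraction of library medians (limma adjusted p = 0.101). The *Hba-a1* difference was between 44.1 and 45.9 points without library 5, 7 or 8, against 45.1 with all. The *Hba-a1* call did not hold without library 23 or without library 24 either. In those fits, again with 1 *Tet2*+/+ library, the *Hba-a1* difference was 48.1 or 42.1 points. *Hbb-bs* had too few calls to be tested. The other 5 myeloid markers did not pass. Over the libraries *Mpo* was between 7.46% and 16.2% (-2.89 points), *Elane* between 33.3% and 53.4% (-2.32 points), *Prtn3* between 0.49% and 2.08% (0.88 points), *Ctsg* between 3.09% and 7.35% (2.40 points) and *Csf3r* between 5.21% and 23.95% (9.69 points). The part of cell composition in the *Mn1* difference was not tested.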

How the data were processed

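WGBS of genomic DNA from sorted AML blasts of 5 mice was analysed (2 *Tet2*+/+, 3 *Tet2*-/-). The authors trimmed reads with Trim Galore 0.4.3, checked them with FastQC 0.11.7, aligned them to GRCm38 (mm10) with Bismark 0.19.1 and Bowtie 2 with its non-directional option, then took out positional duplicates and extracted calls. The deposited values are counts of methylated and unmethylated calls per CpG cytosine, not normalized. The sources used here name no molecular identifiers on the reads. Intervals cover counting error within a library only, not the spread between mice. All 1352625 chromosome 5 dyads of the tables lie at CG in GRCm38. Methylated calls among mitochondrial CpGs were 0.807% to 0.989%.

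Strands were added per dyad, and the level of a region was methylated over all calls, as in the study. Windows needed 20 calls in every library. Promoters were tested with edgeR 4.0.16 (R 4.3.3): methylated and unmethylated counts as 2 columns, a coefficient per library, methylation, and methylation by genotype, trended dispersion, Benjamini-Hochberg at 0.05. Limma 3.58.1 on log2((methylated + 2)/(unmethylated + 2)) was an alternative. The fits were tested on simulated data with 200 of 19455 promoters raised and the same assumed spread between libraries for every promoter. By 25 points edgeR recovered 0 with 0 false calls and limma 154 with 8, and by 45 points edgeR 103 with 1 and limma 200 with 14. EdgeR was kept as the main test, since it had been chosen first. For single values an exact permutation test enumerated the 10 assignments of libraries. Scripts ran in Python 3.11.15 (scipy 1.17.1, numpy 2.4.6).

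*Mn1*, the gene lists and the tests were chosen with earlier results of these data known. Named were the genes of the stretch, partner promoters past the threshold and the 8 with the largest difference, the 8 dense promoters most like *Mn1*, the 5 largest losses, *Tet2*, lineage markers, and 5 windows in each direction. 1 partner gene is not reported here. Marker genes and ranges singled out within those lists were picked after their values were seen, as was the *Tet2* window. Alternatives left out each library or changed the strand, depth, dyads, window, call minimum, promoter length or tool.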

Additional observations from a re-analysis of the deposited data

How the results depend on the processing

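No paired analysis was possible because the groups share no replicate numbers. Leaving out each library in turn, the *Mn1* promoter difference lay between -32.3 and -10.4 points, the difference in length of the low stretch between 667 and 2667 bp (1667 bp with all libraries), the windows lower in every *Tet2*-/- library between 5 and 10 (4 with all), the promoters called by edgeR between 0 and 298 (209 with all) and the partner promoters called between 0 and 1 (2 with all). The 0 promoters came without library 24, where 1598 had an unadjusted p under 0.05 in edgeR. With fewer libraries, groups overlap less easily. The difference in relative coverage of the neighbourhood was between -0.00881 and 0.028 and changed sign without library 23 or without *Tet2*-/- library 7. Lower windows numbered 1 on the minus strand alone and 1 in windows of 1 kb. Limma after subtraction of library medians called 40 promoters and 0 partners, and promoters of 500 bp on each side gave 104 and 1 (*Rara*). The mean strand difference of the promoter was 2.07 points and -0.66 points on dyads called on both strands. The causes were not tested. The promoter was lower in every *Tet2*-/- library on either strand, on dyads called in all libraries, after thinning and with each dyad counted once, with differences from -22.8 to -18.9 points, and at 2000 bp on each side it was -15.5 points. Depth of 2.96 to 5.19 calls does not allow single dyads to be compared.

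The alternatives for the *Cebpe* and *Hba-a1* calls were added after seeing the data.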
